A study of Mus musculus with 12 samples.

Results

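Resident biliary epithelial cells were set against cells of hepatocyte origin, to describe the genes that separate the origin of a cell from the stage of its conversion. The 12 libraries of the series all entered the comparison, 3 from resident biliary cells and 9 from 3 EGFP-positive stages. A gene was a member when resident cells were called above, or below, each of the 3 EGFP-positive groups separately. Of 16210 genes tested, 1431 were above each group (8.83% of genes tested) and 1065 below each (6.57%).

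All mice carried the genotype labelled WT, received AAV8-TBG-Cre, a virus whose hepatocyte promoter (TBG) drives Cre recombinase to lineage-trace hepatocytes, and 1 week later began 8 weeks on a diet with 0.1% DDC (3,5-diethoxycarbonyl-1,4-dihydrocollidine), which injures bile ducts. The early group is EGFP+ Cd24- Epcam-, the intermediate group EGFP+ Cd24+ Epcam- and the full group EGFP+ Cd24+ Epcam+, and the BEC group is EGFP- Epcam+. Ages were not given in the sources used here, and neither was the reporter allele nor the share of hepatocytes that were labelled, so how many EGFP-negative, Epcam-positive cells descend from unlabelled hepatocytes was not tested. No group is free of virus or diet, so resident cells here are those of an injured liver. The labels do not say whether the 3 replicates of a group came from separate animals, and p-values measure the spread between these samples. In sorted bulk samples, fewer cells of a type and less RNA per cell cannot be told apart. Of the EGFP-positive groups, the full group alone shares the Epcam gate with BEC. For early and intermediate, origin and gate therefore cannot be told apart, and full is the closest comparison in gating.

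Hepatocytes and biliary epithelial cells arise from a common embryonic progenitor, the hepatoblast. Hepatocytes secrete plasma proteins and bile acids, while biliary cells line the ducts, carry a primary cilium into the bile and modify it by moving ions, bicarbonate and water. During chronic bile duct injury, hepatocytes can switch on biliary genes, and the genes that still tell the resident duct cell from such a converted cell are those described here.

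Libraries held between 15112893 and 19731887 counts, and 3 counts, taken as the floor of detection, corresponded to between 0.128 and 0.273 counts per 1000000 after TMM scaling (CPM). Mitochondrial genes took 5.45% to 11.4% of counts in early, 3.99% to 4.75% in intermediate, 2.20% to 2.48% in full and 2.58% to 3.43% in BEC, and their part in the results was not tested. The sort gene Epcam, an epithelial adhesion molecule, had 0.633, 0.818 and 0.324 CPM in early, 26.7, 17.4 and 12.4 in intermediate, 283, 273 and 207 in full and 846, 907 and 844 in BEC. BEC exceeded full by 3.40-fold (log2 difference 1.77, SE 0.21, edgeR adjusted p 3.87e-05), although both were sorted as Epcam-positive. Cd24a, which encodes the other sorted surface protein, had 1178, 1112 and 931 CPM in full and 1299.8, 1002 and 918 in BEC (log2 difference near 0, SE 0.25, edgeR adjusted p 1). The 3 libraries of each group overlapped for Cd24a, which was not used to sort BEC.

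Resident cells differed from the equal-weight log mean of the 3 EGFP-positive groups at 9991 genes (61.6% of genes tested, edgeR's quasi-likelihood test, Benjamini-Hochberg adjusted p under 0.05), 5369 higher (33.1%) and 4622 lower (28.5%). Against early alone 11842 genes differed (73.1%), against intermediate 8502 (52.4%) and against full 3445 (21.3%). The 3 comparisons share the BEC libraries. In all 3 BEC libraries, 2354 genes (14.5%) were above the 9 EGFP-positive libraries and 1611 (9.94%) below them. Of the genes called against each group, 1416 of 1431 higher genes (8.74% of genes tested) and 1030 of 1065 lower genes (6.35%) met this as well. Scaling matters for the balance of directions. When libraries were scaled by total counts instead of TMM, the genes above each group numbered 1614 and those below each 829, and 76.7% of calls in the origin contrast were higher in BEC, against 53.7%. The median log2 difference of all genes in that contrast moved from 0.05 to 0.41.

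At least 2-fold differences from each group were found for 811 higher genes (5.00% of genes tested) and 504 lower genes (3.11%). These were split by whether the EGFP-positive stages differed from each other. A gene was called stage-flat when the mean log2 CPM of early, intermediate and full lay within 1 log2 unit, a limit that 8409 of all genes met (51.9%), and stage-graded otherwise. Stage-flat genes numbered 104 (0.642%) among the higher and 97 (0.598%) among the lower, against 707 (4.36%) and 407 (2.51%) graded ones. Most of the 2-fold genes thus also differed between stages. Of the 707 graded higher genes, 695 had a higher level in full than in early, and the median share of the early gap still present in full was 0.384. Of the 407 graded lower genes, 373 had a lower level in full than in early, with a median share of 0.397. For stage-flat genes the shares were 0.817 and 0.876. The shares of graded and of stage-flat genes alike follow in part from the rules that chose them. An F test across the 3 EGFP-positive groups called 11402 genes (70.3%), among them 27 of the 104 and 46 of the 97 stage-flat genes, so flat describes a range and not an absence of change. Just inside the limit lay Rasal1 and Fam110c (ranges of 0.967 and 0.969 log2 units) among the higher genes and Lrp3 (0.984) among the lower. Just outside lay Gsn and Dll1 (1.008 and 1.033), and Nrg1 and Jcad (1.013 and 1.020).

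**Figure D1:**
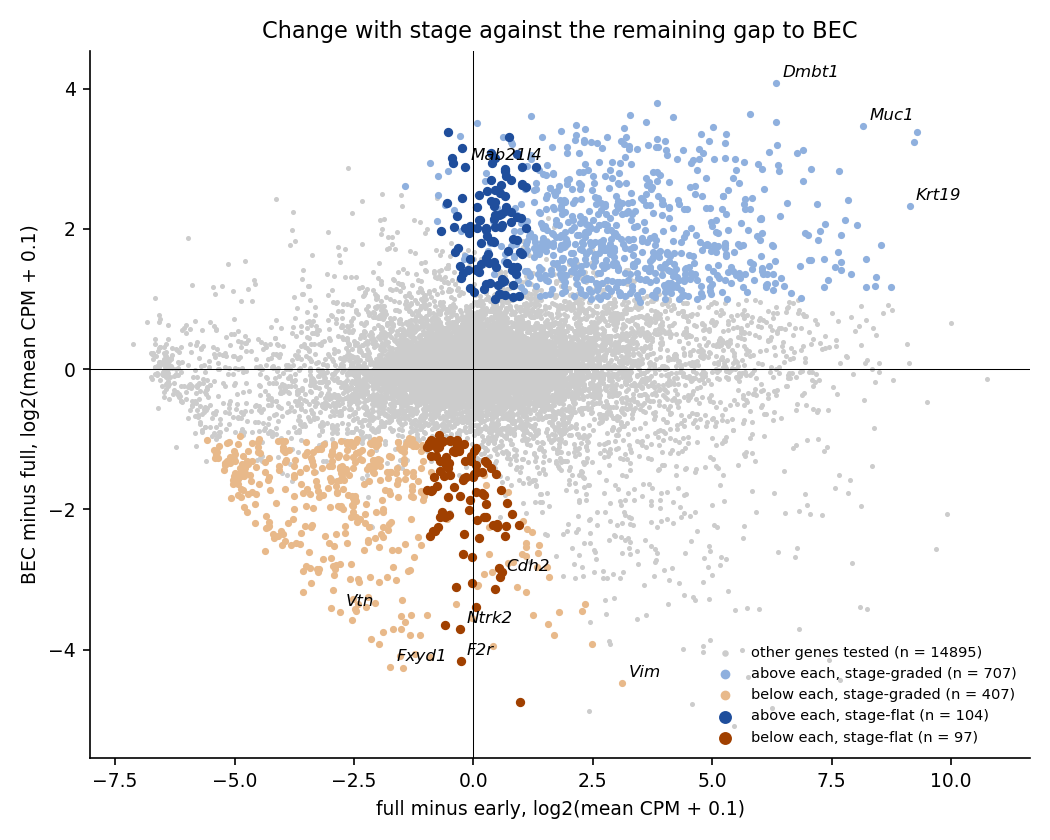
Each point is 1 of the 16210 genes tested. The horizontal axis gives full minus early and the vertical axis BEC minus full, both as log2 of mean CPM plus 0.1, with genes at least 2-fold above or below each EGFP-positive group in blue and orange and stage-flat genes in the darker tone. Stage-flat genes stand near 0 on the horizontal axis, graded higher genes lie mostly to the right and graded lower genes mostly to the left, and Vim lies far to the right among the lower genes.

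Promoter sequences of the leading stage-flat genes are shown because these genes had the widest gaps between BEC and the stages within the stage-flat limit. F2r, the first of them, was also called across stages by the F test (edgeR adjusted p 9.59e-05) and passed the limit with total counts only (a range of 1.12 log2 units). RefSeq windows of 300 bases on build GRCm38.p6, from 250 bases before to 50 after the first listed start, matched 19 of the 24 stage-flat genes named here. The reads were aligned to GRCm39, per the submitters' processing notes, and which start these cells use was not tested. The windows below belong to the 2 lower genes and the 2 higher genes with the widest gap among those matched: F2r at chr13:95618417-95618716 (minus strand), Ntrk2 at chr13:58806319-58806618 (plus strand), Mab21l4 at chr1:93160899-93161198 (minus strand) and Anxa9 at chr3:95315131-95315430 (minus strand). They run 5′ to 3′ on the gene's strand, and capitals mark each CG dinucleotide, the site of DNA methylation in mammals, which reads the same on both strands.
F2r: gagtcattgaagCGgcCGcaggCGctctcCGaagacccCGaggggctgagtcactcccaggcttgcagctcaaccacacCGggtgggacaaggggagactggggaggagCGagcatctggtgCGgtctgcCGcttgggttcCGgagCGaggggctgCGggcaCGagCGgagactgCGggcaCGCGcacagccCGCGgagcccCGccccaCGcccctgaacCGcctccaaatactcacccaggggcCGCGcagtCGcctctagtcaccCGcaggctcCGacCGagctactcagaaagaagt
Ntrk2: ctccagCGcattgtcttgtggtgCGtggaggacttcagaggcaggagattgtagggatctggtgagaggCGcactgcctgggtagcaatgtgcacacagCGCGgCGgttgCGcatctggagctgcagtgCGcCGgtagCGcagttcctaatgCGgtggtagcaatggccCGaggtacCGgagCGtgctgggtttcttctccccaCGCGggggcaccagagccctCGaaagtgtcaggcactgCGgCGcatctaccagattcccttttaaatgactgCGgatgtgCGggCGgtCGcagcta
Mab21l4: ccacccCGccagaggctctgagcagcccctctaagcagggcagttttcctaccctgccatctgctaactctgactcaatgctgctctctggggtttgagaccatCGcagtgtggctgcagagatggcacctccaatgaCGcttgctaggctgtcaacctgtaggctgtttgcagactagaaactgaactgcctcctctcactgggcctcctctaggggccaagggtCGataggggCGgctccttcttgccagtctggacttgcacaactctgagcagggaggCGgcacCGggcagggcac
Anxa9: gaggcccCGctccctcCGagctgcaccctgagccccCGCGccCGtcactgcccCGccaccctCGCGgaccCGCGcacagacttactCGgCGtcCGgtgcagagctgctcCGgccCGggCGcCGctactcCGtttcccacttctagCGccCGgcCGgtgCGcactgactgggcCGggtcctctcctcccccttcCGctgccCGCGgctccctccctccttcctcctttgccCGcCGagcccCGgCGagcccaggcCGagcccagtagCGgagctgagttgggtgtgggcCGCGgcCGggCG
The CG dinucleotide occurred 28 times in the F2r window, 23 times in Ntrk2, 7 times in Mab21l4 and 36 times in Anxa9. Over 27025 such windows, 1 per symbol, the median was 7 (quartiles 3 and 21), and 94.2% held at least 1. Of the 4 windows, 3 were therefore above the upper quartile and that of Mab21l4 was at the median. No methylation was measured in these cells.

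Among lower stage-flat genes, the widest gap was that of F2r, which encodes the thrombin receptor PAR1. Its levels were 100.7, 115 and 104 CPM in early, 149, 139.8 and 148 in intermediate, 86.0, 76.7 and 103 in full and 4.58, 5.31 and 4.66 in BEC. Full cells held 18.3-fold more than resident cells (log2 difference BEC minus full -4.19, SE 0.13, edgeR adjusted p 5.92e-10). The EGFP-positive groups stayed between 76.7 and 149 CPM with no ordered change from early to full, and every BEC library was below 10 CPM. Ntrk2, the BDNF receptor TrkB, had 35.6, 41.5 and 61.6 CPM in early, 50.4, 46.5 and 65.0 in intermediate, 40.4, 26.8 and 46.5 in full and 2.22, 3.31 and 2.92 in BEC. The EGFP-positive groups overlapped each other, and the gap to full was 13.5-fold (-3.75, SE 0.27, edgeR adjusted p 5.14e-07). Nt5e encodes CD73, the surface enzyme that makes adenosine from AMP. It had 22.4, 11.8 and 8.66 CPM in early, 14.02, 9.81 and 7.70 in intermediate, 14.3, 13.9 and 13.6 in full and 1.25, 1.91 and 1.60 in BEC, and resident cells were lower than intermediate, the nearest group, by 6.62-fold (-2.72, SE 0.34, edgeR adjusted p 1.56e-05).

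The cadherin of this group was Cdh2 (N-cadherin), an adhesion molecule that hepatocytes carry beside E-cadherin. It had 191, 159 and 176 CPM in early, 231, 211 and 227 in intermediate, 259, 251 and 268 in full and 39.0, 34.1 and 26.05 in BEC. Full libraries were the highest and BEC libraries the lowest, so full was farther from the resident level than early, and early was the nearest group at 5.31-fold (-2.41, SE 0.13, edgeR adjusted p 1.12e-09). Nid1, a basement membrane linker protein, had 401, 399.9 and 375 CPM in early, 373, 467 and 520.2 in intermediate, 209.8, 229.7 and 260.0 in full and 44.9, 53.7 and 48.1 in BEC, a 4.77-fold difference from full (-2.25, SE 0.13, edgeR adjusted p 9.6e-08). Its paralog Nid2, named after its values were seen, had 13.6 ± 3.41 CPM in early, 16.2 ± 1.39 in intermediate, 19.2 ± 0.786 in full and 3.97 ± 0.604 in BEC (n = 3 each, SD). Both nidogens were thus lower in BEC than in each EGFP-positive group, Nid2 by 3.44-fold from early (-1.78, SE 0.18, edgeR adjusted p 8.18e-07).

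Further lower stage-flat genes had narrower gaps than F2r, Ntrk2, Nt5e and Cdh2. Masp1, a serine protease of the lectin complement pathway, had 237, 213 and 226 CPM in early, 210.3, 138 and 138 in intermediate, 215, 186 and 176 in full and 34.1, 33.3 and 25.4 in BEC, and was 5.25-fold lower in BEC than in intermediate (-2.39, SE 0.17, edgeR adjusted p 5.16e-08). Chrd, a BMP antagonist, had 17.6, 21.1 and 19.1 CPM in early, 16.5, 18.2 and 15.1 in intermediate, 10.7, 9.36 and 12.1 in full and 1.59, 2.56 and 2.06 in BEC (5.17-fold from full, -2.37, SE 0.18, edgeR adjusted p 8.12e-07). Fst, an activin antagonist, had 41.7, 19.4 and 31.7 CPM in early, 56.1, 36.1 and 42.2 in intermediate, 45.8, 40.1 and 48.3 in full and 7.56, 6.01 and 4.98 in BEC (5.001-fold from early, -2.33, SE 0.26, edgeR adjusted p 1.8e-06). The ectoenzymes Enpep, an aminopeptidase that acts on angiotensin, and Enpp3, a nucleotide pyrophosphatase, were lower than in full by 4.14-fold (-2.05, SE 0.13, edgeR adjusted p 1.87e-07) and 4.05-fold (-2.02, SE 0.13, edgeR adjusted p 1.78e-07). Slc41a2, a magnesium transporter, was 5.03-fold lower than in full (-2.33, SE 0.25, edgeR adjusted p 1.57e-05), with early replicate 1 at 67.5 CPM above the other EGFP-positive libraries. Trim2, a ubiquitin ligase, had 72.5 ± 4.48, 105 ± 11.1 and 87.4 ± 8.83 CPM in early, intermediate and full and 20.2 ± 5.03 in BEC (n = 3 each, SD), 3.59-fold below early (-1.85, SE 0.15, edgeR adjusted p 8e-08).

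Among higher stage-flat genes, Mab21l4, a Mab-21 family gene, had 3.64, 3.36 and 2.91 CPM in early, 1.70, 2.03 and 1.64 in intermediate, 3.57, 3.17 and 1.97 in full and 18.9, 23.9 and 23.6 in BEC. Resident cells exceeded early, the nearest group, by 6.69-fold (2.74, SE 0.22, edgeR adjusted p 5.98e-08). Anxa9, an annexin, had 5.46, 7.46 and 7.28 CPM in early, 3.02, 3.01 and 4.30 in intermediate, 6.25, 5.17 and 5.69 in full and 39.9, 26.4 and 28.3 in BEC, with BEC 4.68-fold above early (2.23, SE 0.20, edgeR adjusted p 2.27e-07). For both genes the intermediate mean was the lowest of the 4 groups. Tmc5, a transmembrane channel-like protein, had 1.34, 0.364 and 1.54 CPM in early, 1.32, 0.438 and 0.736 in intermediate, 2.25, 1.03 and 1.71 in full and 11.6, 8.53 and 12.2 in BEC (6.48-fold above full, 2.69, SE 0.39, edgeR adjusted p 0.000203). These are low levels, in some libraries within a few counts of the floor.

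Both Catsperd, known as a subunit of the sperm calcium channel, and Cfap126, a protein of motile cilia, were higher in BEC than in each EGFP-positive group. Catsperd had 2.89 ± 0.998, 2.57 ± 0.219, 4.01 ± 0.403 and 18.7 ± 2.04 CPM in early, intermediate, full and BEC, and Cfap126 3.02 ± 0.446, 2.07 ± 0.446, 3.32 ± 0.652 and 14.9 ± 1.61 (n = 3 each, SD). The differences from full were 2.22, SE 0.20, edgeR adjusted p 3.68e-06 and 2.16, SE 0.21, edgeR adjusted p 5.27e-06. Pik3r3, a regulatory subunit of PI3 kinase, was 3.59-fold above full (1.84, SE 0.28, edgeR adjusted p 0.00033). Usp46, a deubiquitinase, had 12.9, 13.005 and 14.2 CPM in early, 10.2, 12.7 and 13.5 in intermediate, 16.2, 15.03 and 17.3 in full and 48.0, 48.0 and 49.7 in BEC, and was 3.005-fold above full (1.59, SE 0.11, edgeR adjusted p 4.4e-07).

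The endotoxin co-receptor Cd14 had 149, 45.02 and 39.3 CPM in early, 109.6, 61.0 and 62.8 in intermediate, 163, 116 and 102 in full and 391, 349.7 and 344 in BEC. Casp4, the cytosolic caspase that senses bacterial lipopolysaccharide in mice, had 24.2, 8.09 and 6.39 CPM in early, 24.8, 8.22 and 6.34 in intermediate, 23.3, 15.3 and 13.5 in full and 55.9, 45.7 and 49.8 in BEC. BEC was 2.85-fold above full for Cd14 (1.51, SE 0.40, edgeR adjusted p 0.0152) and 2.91-fold for Casp4 (1.54, SE 0.47, edgeR adjusted p 0.0324). Replicate 1 was the highest of its group in all 3 EGFP-positive groups for both genes. The Cd14 call did not hold without full replicate 2 (edgeR adjusted p 0.0603) or full replicate 3 (edgeR adjusted p 0.0687). The Casp4 call was lost with DESeq2 (adjusted p 0.0516), without full replicate 2 or 3 (edgeR adjusted p 0.109 and 0.122), and without any 1 of the BEC libraries (edgeR adjusted p 0.0882, 0.0621 and 0.0654). Cd14 is also a macrophage marker. Of the 10 tested macrophage markers 2 were above each group, Cd14 and Csf1r, the latter at 61.0, 69.0 and 73.4 CPM in full and 128, 133 and 119.6 in BEC. Summed macrophage markers ran from 65.5 to 174 CPM in early, 98.3 to 140.3 in intermediate, 195 to 229 in full and 501 to 524 in BEC, a sum that in BEC was mostly Cd14 itself and Csf1r. The Kupffer cell gene Clec4f had 0.867, 2.52 and 7.68 CPM and C1qa 0, 2.66 and 4.57 CPM in the 3 BEC libraries. Over the 10 markers, 3 were higher in BEC than in full and 0 lower, with a median log2 difference of 0.87, and their part in the Cd14 difference was not tested.

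The other 3 were Mme, Myh14 and Fut11. Mme, the membrane peptidase neprilysin, had 33.9, 64.8 and 97.5 CPM in early, 31.6, 35.0 and 67.2 in intermediate, 69.5, 73.2 and 74.9 in full and 221, 186 and 207 in BEC (2.82-fold above full, 1.497, SE 0.31, edgeR adjusted p 0.00317). Its full libraries were close together and its early libraries wide apart. Myh14, a nonmuscle myosin heavy chain, had 90.4 ± 21.5, 61.3 ± 3.07, 93.6 ± 10.4 and 252 ± 37.5 CPM in early, intermediate, full and BEC (n = 3 each, SD), 2.698-fold above full (1.43, SE 0.16, edgeR adjusted p 1.81e-05). Fut11, a fucosyltransferase, was 2.77-fold above full (1.47, SE 0.20, edgeR adjusted p 0.000104). With total counts only, all 24 named stage-flat genes kept their direction, but 4 of the 12 higher (Mab21l4, Anxa9, Cfap126 and Myh14) and 8 of the 12 lower (all but F2r, Cdh2, Fst and Trim2) still met the stage-flat limit. Whether a gene is flat across stages therefore depends on the scaling. Differences from early also became smaller for lower genes, with BEC minus early at -1.54 for Cdh2, -1.46 for Fst, -0.98 for Trim2 and -0.91 for Nid2.

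**Figure D2:**
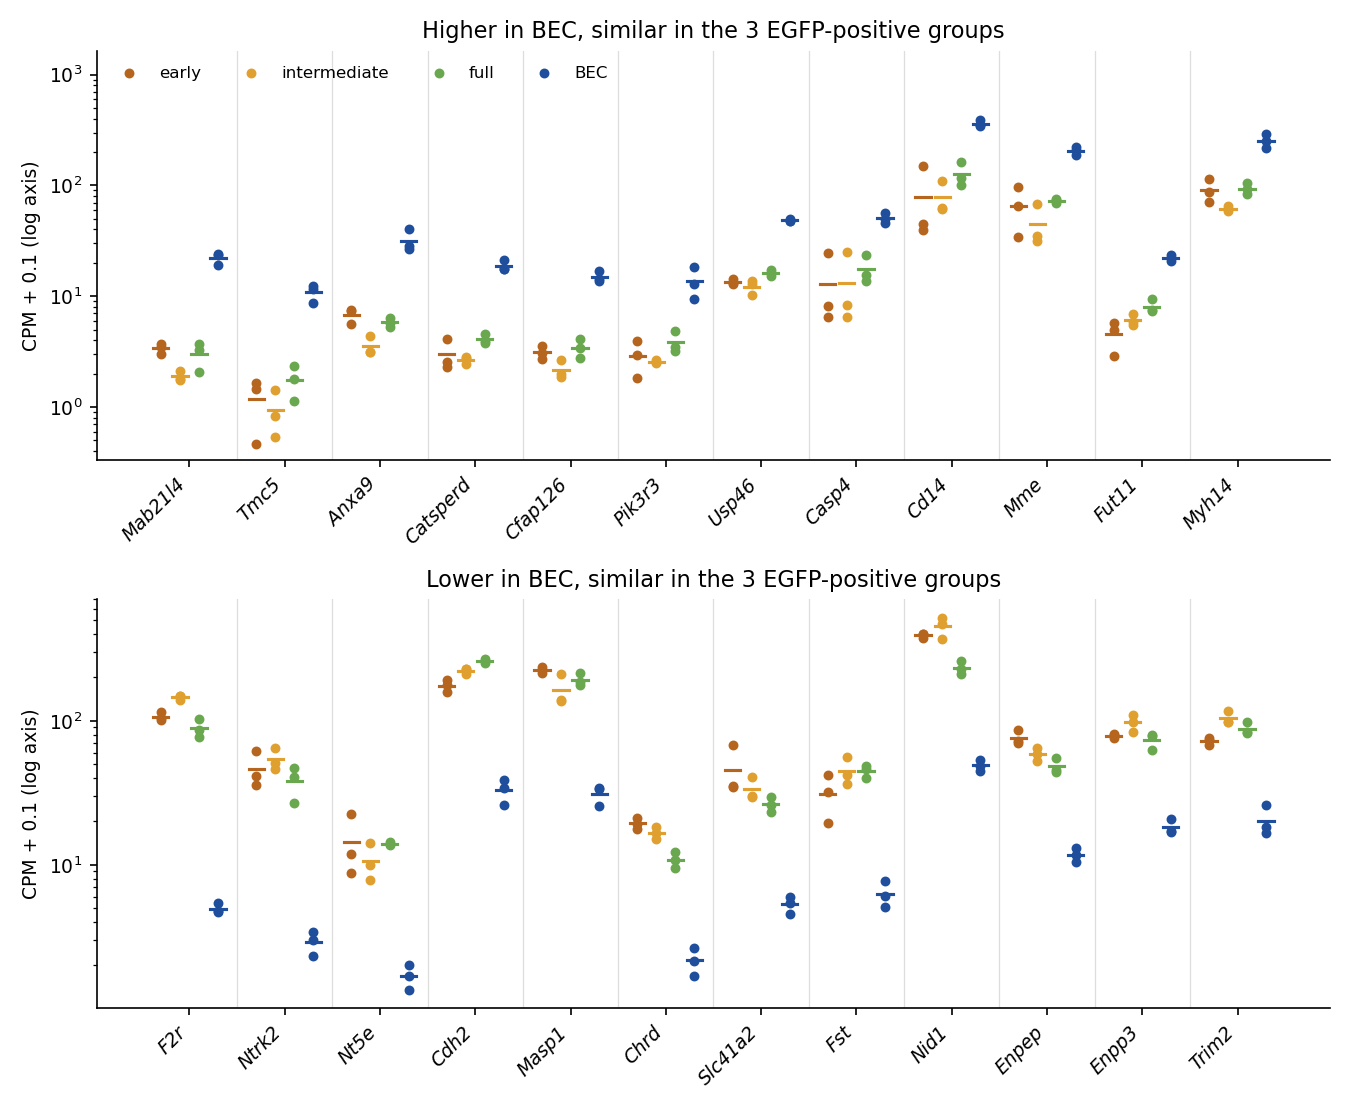
CPM plus 0.1 on a log axis for the 12 higher and the 12 lower stage-flat genes, with 1 point per library (n = 3 per group) and a line at each group mean, coloured by group. As the rule for naming genes required, the 3 BEC points stand apart from the 9 EGFP-positive points in each gene, for instance 4.58 to 5.31 CPM against at least 76.7 for F2r.

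The graded genes with the widest gap on the higher side were Dmbt1, Slc5a8, Slc28a3 and Atp10b. Dmbt1, a secreted mucosal defence glycoprotein, was at or under 3 counts in every early and intermediate library, and had 9.79, 14.7 and 5.99 CPM in full and 126, 172 and 223 in BEC (17.1-fold, 4.10, SE 0.30, edgeR adjusted p 2.09e-06). Slc5a8, a sodium-coupled monocarboxylate transporter, was at or under the floor in the same groups, with 1.45, 1.07 and 1.49 CPM in full and 23.3, 18.1 and 18.003 in BEC (14.8-fold, 3.88, SE 0.27, edgeR adjusted p 1.25e-06). Slc28a3, a nucleoside transporter, had 1.15, 1.20 and 0.262 and 16.4, 10.7 and 8.54 CPM (13.6-fold, 3.76, SE 0.48, edgeR adjusted p 0.000369). Atp10b, a lipid-flipping ATPase, had 7.53, 4.19 and 4.55 and 82.2, 59.6 and 64.2 (12.7-fold, 3.66, SE 0.24, edgeR adjusted p 4.53e-06). Neither was detected in any early or intermediate library. All 4 genes were thus detected in full cells, each at a small fraction of the resident level. The matrix protease Mmp7, named after its values were seen, had 91.3, 53.4 and 41.9 CPM in full and 771, 617 and 569 in BEC (10.5-fold, 3.39, SE 0.29, edgeR adjusted p 8.22e-06).

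On the lower side, Fxyd1, a regulator of the sodium pump, had 233, 206 and 203 CPM in early, 114, 116 and 105 in intermediate, 65.4, 61.5 and 65.6 in full and 1.35, 3.87 and 4.62 in BEC. Full cells held 19.6-fold more than resident cells (-4.28, SE 0.26, edgeR adjusted p 1.15e-07). Nox4, a hydrogen-peroxide-producing oxidase, had 42.6, 48.0 and 38.9 CPM in early, 35.1, 31.0 and 35.2 in intermediate, 17.4, 11.6 and 15.2 in full and 0.867, 0.978 and 0.457 in BEC (19.2-fold from full, -4.25, SE 0.23, edgeR adjusted p 4.91e-08). Olfml1, a secreted olfactomedin-like protein, and Car14, a membrane carbonic anhydrase, were 22.3-fold (-4.46, SE 0.27, edgeR adjusted p 1.33e-07) and 16.9-fold (-4.06, SE 0.32, edgeR adjusted p 8.76e-07) lower in BEC than in full. In these 4 genes the mean was lower in full than in early. Vtn, the plasma adhesion protein vitronectin, named after its values were seen, ran from 4310.4 ± 519 CPM in early to 618 ± 88.1 in full and 55.6 ± 21.7 in BEC (n = 3 each, SD; log2 difference BEC minus full -3.47, SE 0.25, edgeR adjusted p 4.41e-07). Vtn and its neighbours Sarm1 and Sebox, which lie next to it in RefSeq order, were all lower in BEC, and reads of overlapping genes may not be separable here. Mean Sarm1 was 2.13, 11.8 and 10.6 CPM in early, intermediate and full and 0.881 in BEC, so it was higher in full than in early where Vtn was lower.

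**Figure D3:**
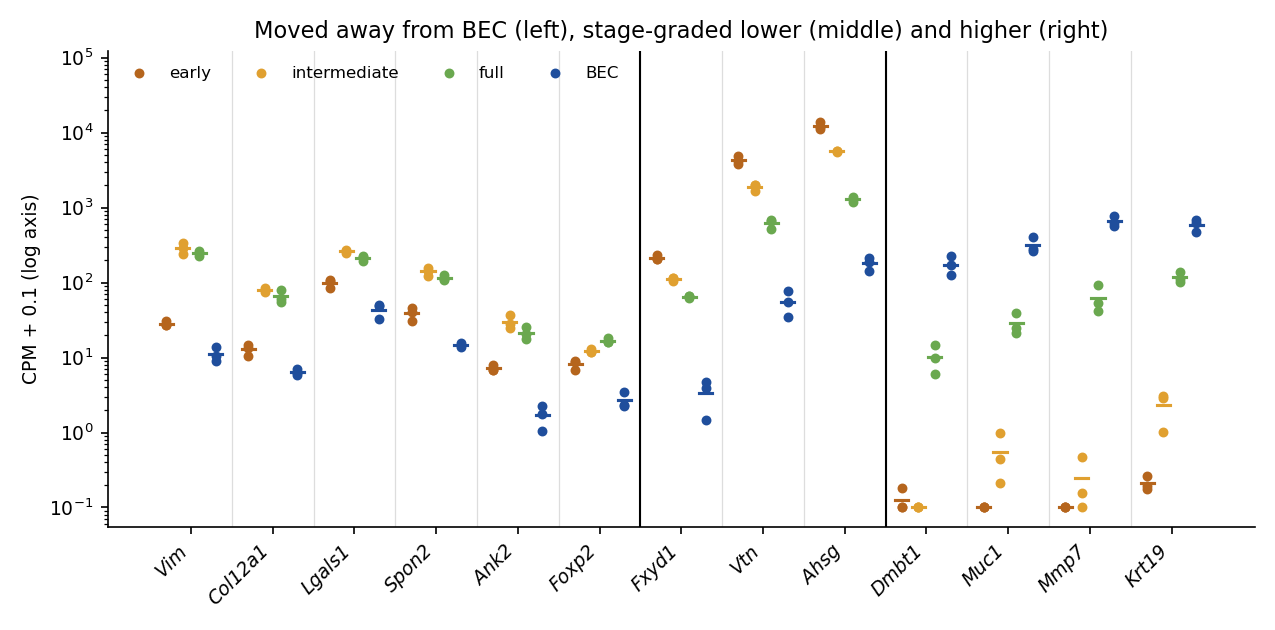
CPM plus 0.1 on a log axis for 13 genes, with 1 point per library (n = 3 per group) and a line at each group mean. The left panel holds genes lower in BEC that were higher in full than in early, the middle panel graded lower genes and the right panel graded higher genes, where full points stand between the intermediate and the BEC points.

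Most plasma proteins made by hepatocytes were lower in resident cells than in each stage. Of 26 tested secreted plasma proteins, 0 were above and 19 below each EGFP-positive group (73.1%, against 6.57% of all genes tested), with a median BEC minus full of -0.88 log2 units, against 0.00 for all genes. Ahsg (fetuin-A) had 12149 ± 1343 CPM in early, 1293 ± 100.7 in full and 179.5 ± 33.2 in BEC (n = 3 each, SD; 7.20-fold, -2.85, SE 0.15, edgeR adjusted p 4.91e-08). Rbp4, the retinol carrier, was 5.30-fold lower in BEC than in full (-2.40, SE 0.20, edgeR adjusted p 1.46e-06). Serpina1a and Serpina1c, copies of the alpha-1-antitrypsin family whose reads may be shared, were 4.78-fold and 3.50-fold lower (-2.26, SE 0.21, edgeR adjusted p 3.92e-06 and -1.81, SE 0.15, edgeR adjusted p 1.24e-06).

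Membrane transporters and receptors of hepatocytes gave 0 above and 11 below of 22 (median BEC minus full -0.90), and metabolic enzymes 0 above and 7 below of 30 (23.3%; median -0.09). Abcc2 and Abcb4, canalicular pumps for organic anions and phospholipid, had 252, 200.1 and 258 and 28.8, 25.3 and 33.6 CPM in full against 56.5, 43.0 and 40.0 and 4.67, 6.34 and 7.31 in BEC. The differences were -2.35, SE 0.15, edgeR adjusted p 2.23e-07 and -2.26, SE 0.17, edgeR adjusted p 8.12e-07. Tfr2, an iron sensor, was 4.63-fold lower (-2.21, SE 0.23, edgeR adjusted p 1.03e-05), and the uptake transporter Slco1a1, at or under the floor in BEC, had 2.51, 1.43 and 1.79 CPM in full. Of the enzymes, Tat (tyrosine catabolism) was 6.13-fold lower in BEC than in full (-2.61, SE 0.31, edgeR adjusted p 3.88e-05), Cyp27a1 (bile acid synthesis) 5.57-fold (-2.47, SE 0.19, edgeR adjusted p 8.12e-07) and Fbp1 (gluconeogenesis) 5.24-fold (-2.39, SE 0.26, edgeR adjusted p 1.91e-05). Of the 30 enzymes 29 were lower in BEC in the origin contrast, but 7 were lower than full and 1, the carboxylesterase Ces1d, was higher than full (1.33, SE 0.26, edgeR adjusted p 0.00216).

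Biliary and duct genes lay on the other side. Of 25 biliary markers, 14 were above each group and 0 below (56.0%, against 8.83% of all genes tested; median BEC minus full 0.65). The list includes the sort genes Epcam and Cd24a, and Epcam is among the 14 while Cd24a is not. Early and intermediate were sorted as Epcam-negative, so the place of Epcam above them follows from the gates. Muc1, a membrane mucin, had no counts in early, 0.880, 0.110 and 0.340 CPM in intermediate, 39.4, 24.9 and 20.9 in full and 399.7, 267 and 281 in BEC (11.1-fold above full, 3.47, SE 0.28, edgeR adjusted p 4.04e-06). Itgb6, the beta subunit of an integrin that activates TGF-beta, was 9.22-fold above full (3.20, SE 0.24, edgeR adjusted p 6.12e-07). Krt19 was 5.02-fold above full (2.33, SE 0.22, edgeR adjusted p 5.08e-06). Of 9 tested keratins, 3 were above each group (Krt19, Krt17 and Krt7; 33.3%) and 0 below, while in the origin contrast 4 were higher and 3 lower and 1 was lower than full. Krt17 had 2.34, 6.64 and 7.70 CPM in full and 9.78, 18.5 and 24.2 in BEC (1.65, SE 0.40, edgeR adjusted p 0.00838), and Krt7, at 2.25-fold above full (1.17, SE 0.28, edgeR adjusted p 0.00708), lost its call with DESeq2 (adjusted p 0.0604).

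Fluid and ion transport genes of ducts gave 16 above and 0 below of 24 tested (66.7%; median BEC minus full 1.89), and mucosal secretion genes 13 above and 0 below of 20 (65.0%; median 2.04). Besides Slc5a8 and Slc28a3, the water channel Aqp5 had 1.28, 0.624 and 0.481 CPM in full and 5.35, 6.94 and 12.2 in BEC (10.3-fold, 3.35, SE 0.46, edgeR adjusted p 0.000635), and was not detected in early or intermediate. Fxyd3, a regulator of the sodium pump, had 0.633, 0.273 and 0.243 CPM in early, 0.503, 0.877 and 0.736 in intermediate, 17.5, 13.2 and 11.3 in full and 94.3, 91.8 and 91.9 in BEC (6.62-fold above full, 2.73, SE 0.16, edgeR adjusted p 1.13e-07). The 2 sodium pump regulators Fxyd1 and Fxyd3 thus differed in opposite directions. Of the mucosal genes, the mucin Muc20 was 12.4-fold (3.62, SE 0.37, edgeR adjusted p 9.06e-05) and Fcgbp, a mucus-binding protein, 9.97-fold (3.32, SE 0.30, edgeR adjusted p 3.15e-06) above full. In both lists, early and intermediate libraries were at or near the floor for the genes named, and full libraries were at a fraction of the resident level.

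**Figure D4:**
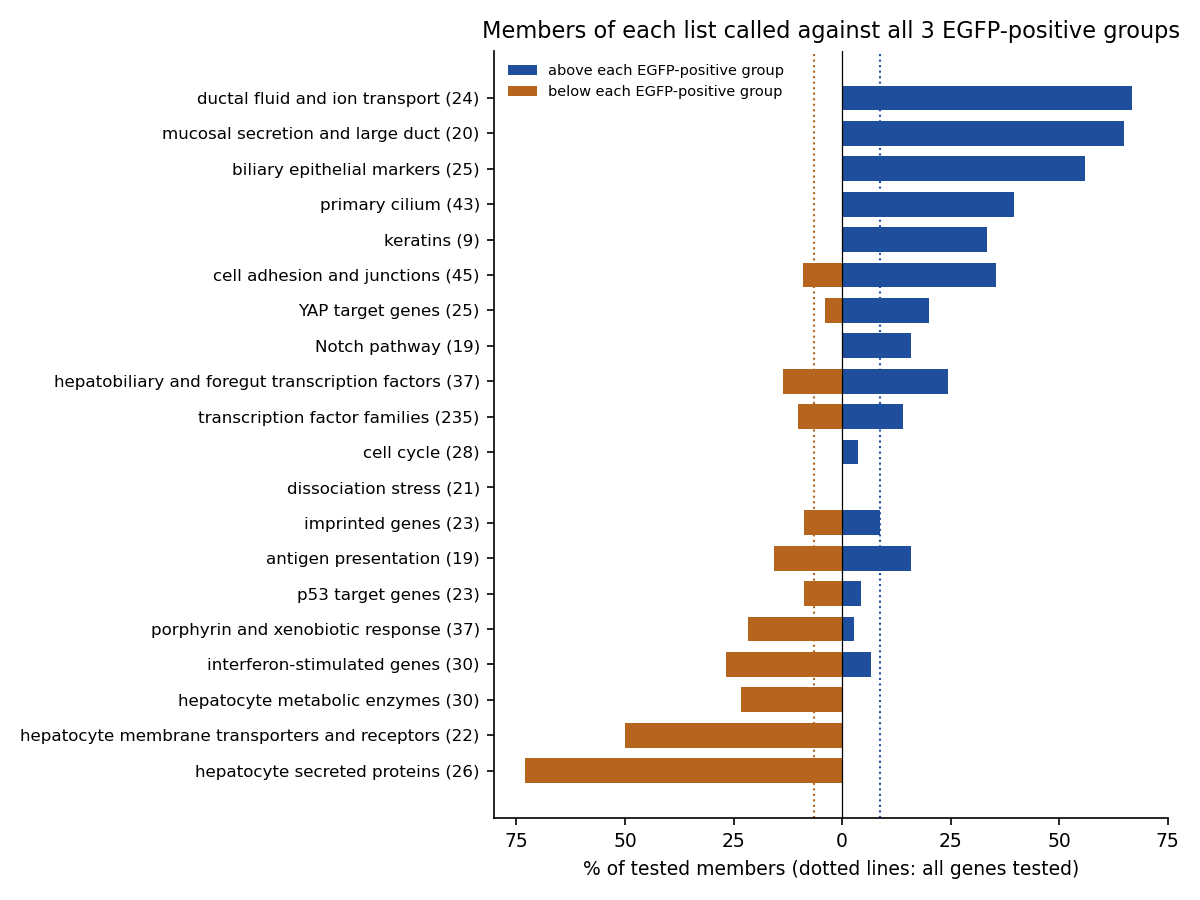
Share of the tested members of each list (number tested in brackets) called above each EGFP-positive group (blue, to the right) or below each (orange, to the left), in percent of tested members. Dotted lines mark the shares over all genes tested, 8.83% above and 6.57% below, and the hepatocyte lists reach only to the left and the duct, mucosal and biliary lists only to the right.

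Adhesion genes divided. Of 45 tested, 16 were above each group and 4 below (35.6% and 8.89%, against 8.83% and 6.57% of all genes tested). The lower share was thus near that of all genes. Cldn8, a tight junction claudin, was not detected in early or intermediate, and had 3.28, 3.21 and 2.93 CPM in full and 36.3, 31.0 and 38.9 in BEC (11.3-fold, 3.49, SE 0.17, edgeR adjusted p 6.88e-07). Esrp1, an epithelial splicing regulator kept in this list, was 8.55-fold above full (3.09, SE 0.22, edgeR adjusted p 9.63e-06), and the desmosome protein Pkp1 7.67-fold (2.92, SE 0.46, edgeR adjusted p 0.000358). The 4 lower genes were Cdh2, the claudins Cldn1 and Cldn14 and the connexin Gjb2. Cldn1 had 122.9 ± 15.8 CPM in early, 4.34 ± 1.24 in full and 1.45 ± 0.178 in BEC (n = 3 each, SD; -1.58, SE 0.22, edgeR adjusted p 0.000156). Gjb2 (connexin 26) and Cldn14 were 1.86-fold and 1.68-fold lower than in full (-0.90, SE 0.20, edgeR adjusted p 0.00439 and -0.75, SE 0.19, edgeR adjusted p 0.0115). Members of 1 family, the claudins, thus differed from each EGFP-positive group in both directions, with Cldn8 higher and Cldn1 and Cldn14 lower.

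Transcription factors were read from 2 overlapping lists. Of 37 hepatobiliary and foregut factors, 9 were above and 5 below each group (24.3% and 13.5%). Among the 5 lower ones were Hnf4a, Foxa3, Ppara and Nr1h4 (FXR), regulators of hepatocyte genes, at -0.52, -0.92, -0.92 and -0.90 log2 units against full (SE 0.12, 0.18, 0.23 and 0.10), none of them 2-fold. The Ppara call was lost with limma-voom (adjusted p 0.0646). The higher ones included Grhl2 and Klf5, regulators of epithelial genes, at 16.3, 20.6 and 12.1 and 46.5, 49.9 and 39.5 CPM in full and 72.0, 65.2 and 69.1 and 118, 133 and 151 in BEC (2.07, SE 0.18, edgeR adjusted p 8.42e-06 and 1.57, SE 0.29, edgeR adjusted p 0.00144). Onecut3 had 1.73, 2.14 and 1.55 CPM and Pdx1, a pancreas and duodenum factor, 0.674, 0.466 and 0.594 CPM in BEC. For Pdx1 all 9 EGFP-positive libraries were at or under 3 counts, and both levels are low.

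Over families of transcription factors, 235 were tested, of which 33 were above and 24 below each group (14.04% and 10.2%), 17 and 14 of them by at least 2-fold. Of these, 2 higher and 3 lower ones were stage-flat. Zeb1, a repressor of epithelial genes, had 27.8, 31.0 and 27.8 CPM in early, 42.1, 45.7 and 48.1 in intermediate, 28.1, 34.0 and 35.8 in full and 10.02, 8.43 and 10.1 in BEC, lower in BEC than in early by 3.03-fold (-1.60, SE 0.12, edgeR adjusted p 3.7e-08). With total counts only, the log2 difference from early was -0.73, still called, and the stages spanned 1.31 log2 units, past the stage-flat limit. Klf12 had 44.0 ± 5.86, 43.9 ± 2.37, 31.5 ± 2.76 and 15.4 ± 1.31 CPM in early, intermediate, full and BEC (n = 3 each, SD; -1.03, SE 0.12, edgeR adjusted p 2.4e-05). Ppard, a lipid-sensing nuclear receptor, had 15.4, 16.0 and 16.3 CPM in early, 17.4, 14.6 and 16.4 in intermediate, 23.6, 24.4 and 24.0 in full and 56.2, 57.9 and 62.5 in BEC, higher in BEC than in full by 2.45-fold (1.30, SE 0.09, edgeR adjusted p 4.41e-07), and its stages spanned 1.45 log2 units with total counts only, also past the limit. Gata5 had 3.23, 1.49 and 1.69 CPM in BEC against at most 0.383 in any EGFP-positive library (3.16, SE 0.74, edgeR adjusted p 0.00659).

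Graded factors at least 2-fold apart, named after their values were seen, included Irx3, Creb3l3, Thrb and Esr1 among the lower and Runx1, Runx2 and Creb3l1 among the higher. Creb3l3, a liver-enriched factor of the endoplasmic reticulum, had 414 ± 32.3 CPM in early, 77.0 ± 7.39 in full and 9.58 ± 0.820 in BEC (8.03-fold, -3.01, SE 0.11, edgeR adjusted p 3.6e-09), while its relative Creb3l1 had 0.439 ± 0.321, 7.25 ± 1.98 and 34.3 ± 1.99 CPM (n = 3 each, SD; 2.24, SE 0.22, edgeR adjusted p 6.77e-06). Irx3, a homeobox factor, peaked in intermediate at 33.0 ± 7.66 CPM and was 7.005 ± 3.66 in full and 0.509 ± 0.340 in BEC (-3.75, SE 0.53, edgeR adjusted p 0.000151). The hormone receptors Thrb (thyroid hormone) and Esr1 (estrogen) were 4.57-fold and 5.62-fold lower than in full (-2.19, SE 0.16, edgeR adjusted p 6.41e-07 and -2.48, SE 0.38, edgeR adjusted p 0.000286). Runx1 and Runx2 were 4.198-fold and 5.77-fold higher than in full (2.07, SE 0.40, edgeR adjusted p 0.00175 and 2.52, SE 0.32, edgeR adjusted p 6.55e-05).

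**Figure D5:**
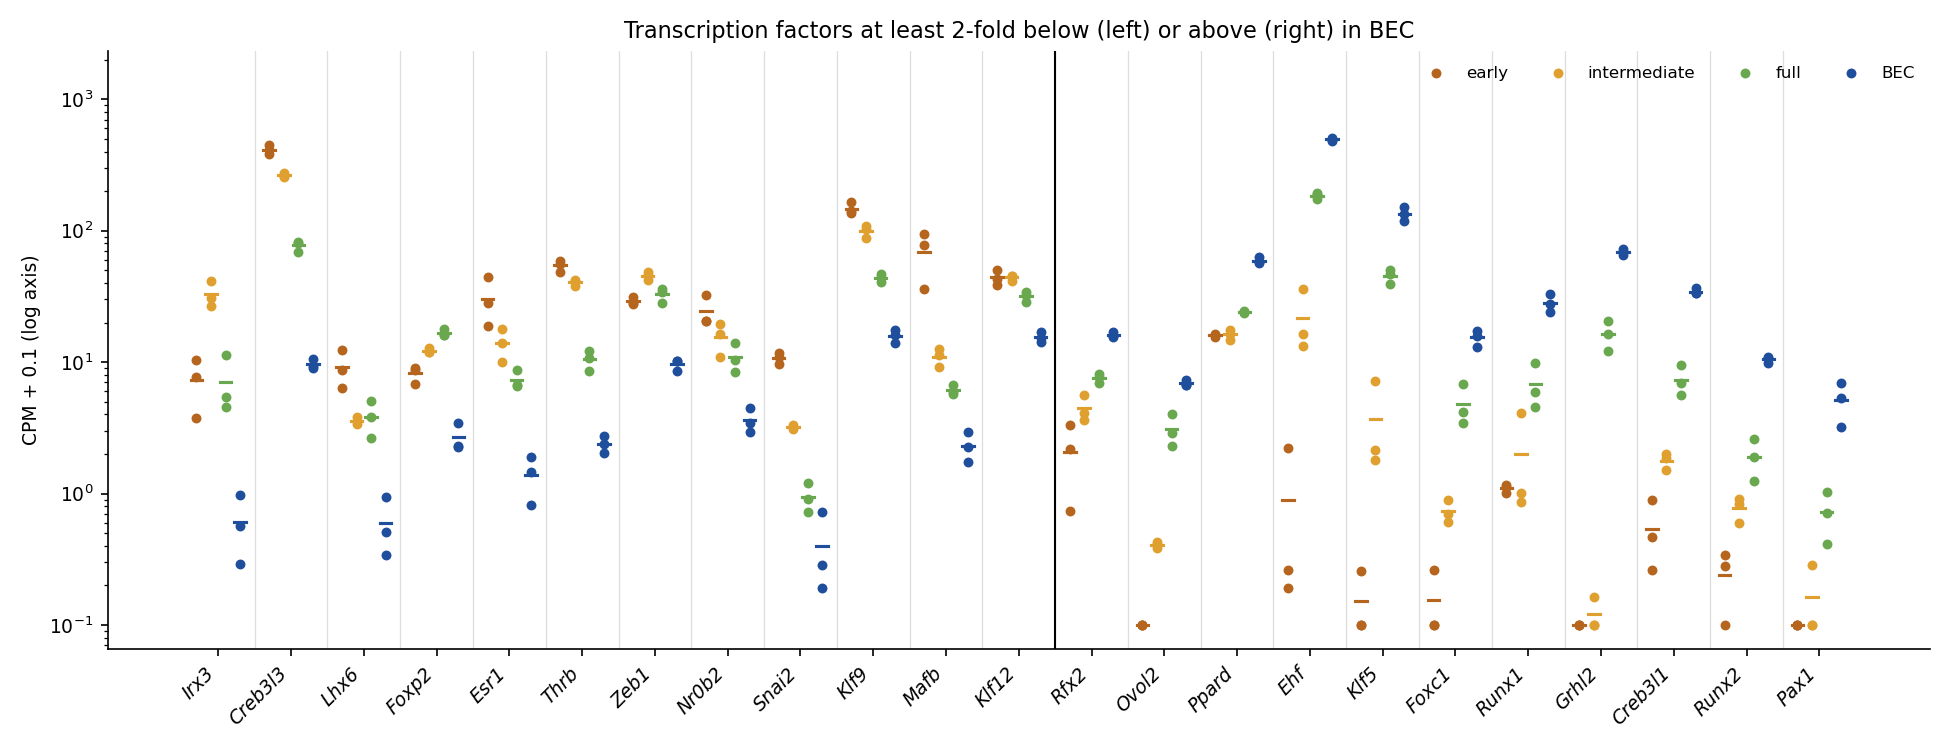
CPM plus 0.1 on a log axis for the transcription factors at least 2-fold below (left of the black line, 12 genes) or above (right, 11 genes) each EGFP-positive group in BEC and with a mean of at least 5 CPM in some group, with 1 point per library (n = 3 per group) and a line at each group mean. Most lower factors step down from early to BEC and most higher ones step up, while Zeb1, Klf12 and Ppard keep the 3 EGFP-positive groups close together with TMM factors, and only Klf12 of these 3 stays within the stage-flat limit with total counts.

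Of 19 Notch pathway genes, 3 were above each group and 0 below (15.8%, against 8.83% of all genes tested; median BEC minus full 0.02). Against full alone, 4 were higher and 5 lower, and with total counts only 5 were above each group. The ligand Dll1 had 8.15, 14.6 and 14.1 CPM in early, 4.84, 6.96 and 5.66 in intermediate, 10.3, 10.6 and 11.5 in full and 30.4, 32.2 and 34.2 in BEC (2.63-fold above early, 1.40, SE 0.19, edgeR adjusted p 1.41e-05), and the ubiquitin ligase Dtx1 was 2.07-fold above full (1.05, SE 0.19, edgeR adjusted p 0.00109). The third, the coactivator Maml2 (0.79, SE 0.21, edgeR adjusted p 0.0143 against full), lost its call without full replicate 3, BEC replicate 1 or BEC replicate 2 (edgeR adjusted p 0.08, 0.0549 and 0.0525). Of 25 YAP target genes, 5 were above each group (20%) and 1, Nt5e, below (median BEC minus full 0.14). Nuak2, a kinase, was 2.11-fold above full (1.08, SE 0.23, edgeR adjusted p 0.00411) and Crim1, a BMP-binding membrane protein, 1.74-fold (0.80, SE 0.09, edgeR adjusted p 3.21e-05). Amotl1 (0.80, SE 0.26, edgeR adjusted p 0.0445) and Rbms3 (0.67, SE 0.17, edgeR adjusted p 0.0103) lost their calls with 1 library left out, Amotl1 in 8 of 12 such fits and Rbms3 without full replicate 1 or 3. Scaling by library totals (edgeR adjusted p 0.0507) and DESeq2 (adjusted p 0.347) also ended the Amotl1 call.

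Of 43 primary cilium genes, 17 were above each group and 0 below (39.5%; median BEC minus full 0.29), 2 of them by at least 2-fold. Those 2 were Nphp4, a transition zone protein, with 5.36, 6.47 and 4.42 CPM in full and 13.5, 17.0 and 16.7 in BEC (1.54, SE 0.33, edgeR adjusted p 0.00506), and Rfx2, a regulator of cilium genes (1.10, SE 0.29, edgeR adjusted p 0.014), whose call did not hold without full replicate 3 (edgeR adjusted p 0.0603). Foxj1, the regulator of motile cilia, had 0.554, 2.18 and 1.21 CPM in early, 42.6, 59.1 and 58.9 in intermediate, 102, 121 and 117 in full and 153, 236 and 244 in BEC (0.89, SE 0.20, edgeR adjusted p 0.00584 against full), and Bbs2, of the BBSome, was 1.58-fold above full (0.66, SE 0.14, edgeR adjusted p 0.0027). Of 7 tested markers of multiciliated cells, 4 were above each group, and their sum ran from 3.72 to 7.09 CPM in early, 60.1 to 86.0 in intermediate, 137 to 174 in full and 177 to 271 in BEC, most of it Foxj1 except in early. Mcidas, Gmnc and Ccno, which drive multiciliated differentiation, were at 0 in BEC.

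Interferon-stimulated genes were lower more often than higher, 8 below and 2 above each group of 30 tested (26.7% and 6.67%; median BEC minus full -0.48). Iigp1, an immunity-related GTPase, had 259.7, 304 and 274 CPM in early, 159.6, 146 and 167 in intermediate, 52.0, 42.7 and 50.6 in full and 11.9, 13.4 and 11.97 in BEC (3.90-fold lower than full, -1.96, SE 0.11, edgeR adjusted p 5.64e-08). Usp18, a brake on interferon signalling, was 2.49-fold lower than full (-1.32, SE 0.14, edgeR adjusted p 1.86e-05), with little difference among stages (25.6 ± 2.59, 27.1 ± 2.59 and 22.8 ± 0.992 CPM in early, intermediate and full, n = 3 each, SD). Mx1 was 2.14-fold lower (-1.09, SE 0.29, edgeR adjusted p 0.0154), a call that did not hold without full replicate 2 or BEC replicate 2 (edgeR adjusted p 0.0511 and 0.0597). Ifit3 was called lower (-0.73, SE 0.23, edgeR adjusted p 0.0164 against intermediate) but not with total counts only, where its difference was near 0 (0.00154), nor without BEC replicate 1 or 3 (edgeR adjusted p 0.0616 and 0.0584). The higher ones, Oas2 and Oasl2, which sense or resemble sensors of viral RNA, were 4.15-fold and 1.81-fold above full (2.05, SE 0.45, edgeR adjusted p 0.00469 and 0.86, SE 0.21, edgeR adjusted p 0.00848). With total counts only, 6 of the list were below each group.

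Antigen presentation gave 3 genes above and 3 below each group of 19 tested (15.8% each; median BEC minus full 0.18). Cd74, the class II invariant chain, had 9.49, 24.1 and 11.7 CPM in early, 13.8, 21.3 and 13.6 in intermediate, 124, 137 and 109 in full and 336, 335 and 317 in BEC (2.67-fold above full, 1.42, SE 0.24, edgeR adjusted p 0.000801), and H2-DMb1, a class II loading factor, was 2.01-fold above full (1.01, SE 0.32, edgeR adjusted p 0.0358), a call lost without any 1 of the full libraries or without BEC replicate 2 or 3. Tap2, which moves peptides for class I, was 1.83-fold above early (0.87, SE 0.12, edgeR adjusted p 1.56e-05). Cd1d1, a lipid-presenting molecule, was 2.78-fold lower than full (-1.47, SE 0.09, edgeR adjusted p 1.56e-07) and B2m, the class I light chain, 1.42-fold (-0.50, SE 0.10, edgeR adjusted p 0.00251). The class I-like gene H2-Q7, one of a family of near copies, was lower (-0.81, SE 0.13, edgeR adjusted p 0.000168 against intermediate) with TMM factors and not with total counts only (0.04).

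Genes of porphyrin and xenobiotic handling, read because DDC raises porphyrins, gave 8 below and 1 above each group of 37 (21.6% and 2.703%; median BEC minus full -0.15). The efflux pump Abcg2, which exports porphyrins, had 125, 126 and 141 CPM in early, 112, 89.0 and 90.7 in intermediate, 106, 76.3 and 80.0 in full and 47.1, 28.6 and 34.2 in BEC and was stage-flat (2.39-fold lower than full, -1.26, SE 0.17, edgeR adjusted p 0.000127). Gstm1, a glutathione transferase, and Blvrb, a biliverdin reductase, were 1.84-fold (-0.88, SE 0.14, edgeR adjusted p 0.000396) and 1.68-fold (-0.74, SE 0.19, edgeR adjusted p 0.0107) lower. Nqo1, a quinone reductase, was 2.07-fold lower (-1.04, SE 0.30, edgeR adjusted p 0.0221), a call lost with limma-voom and without full replicate 1 or 3 or BEC replicate 1 or 2. The one higher gene was Ahr, the dioxin receptor that senses aromatic compounds, with 149.9, 131 and 124 CPM in early, 70.8, 73.3 and 68.2 in intermediate, 103, 105 and 97.5 in full and 219, 188 and 203 in BEC (1.51-fold above early, 0.59, SE 0.09, edgeR adjusted p 4.54e-05). Of 28 cell cycle genes 1 was above each group, Ccnd1 (cyclin D1, 1.68-fold above full, 0.75, SE 0.13, edgeR adjusted p 0.000917), and 0 below (3.57%). In the origin contrast 24 of the 28 were higher in BEC and 0 lower, against 33.1% of all genes called higher. The median log2 difference was 1.35 against early, 2.83 against intermediate and 0.02 against full, with 1 of 28 higher than full. Of 23 p53 targets 1 was above, the death receptor Tnfrsf10b (0.66, SE 0.14, edgeR adjusted p 0.00392 against full), and 2 below, Fas and Sesn1 (-0.63, SE 0.20, edgeR adjusted p 0.0405 and -0.40, SE 0.11, edgeR adjusted p 0.0134), whose calls were lost in several fits. The p53 shares, 4.35% above and 8.70% below, were not far from the 8.83% and 6.57% of all genes tested. Of 21 dissociation stress genes, 0 were above and 0 below each group, with 2 higher and 2 lower in the origin contrast.

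Of 23 tested imprinted genes, 2 were above and 2 below each group (8.70% each, median BEC minus full -0.36), near the 8.83% and 6.57% of all genes tested. The maternally expressed long RNAs Meg3 and Rian, from 1 imprinted domain, were lower. Meg3 had 33.3, 8.09 and 8.90 CPM in early, 41.0, 6.79 and 16.7 in intermediate, 13.8, 2.63 and 10.1 in full and 0.434, 0.326 and 0.503 in BEC (21.1-fold lower than full, -4.38, SE 0.95, edgeR adjusted p 0.00419), and Rian had 20.6, 3.64 and 6.15 CPM in early, 19.5, 3.45 and 6.74 in intermediate, 5.66, 0.714 and 4.07 in full and 0.337, 0.0932 and 0.0914 in BEC (-4.29, SE 1.13, edgeR adjusted p 0.014 against full). EGFP-positive libraries spread widely, with replicate 1 the highest and replicate 2 the lowest of each group for both RNAs, and all BEC libraries were under the lowest of them. Both calls were lost with limma-voom (adjusted p 0.0943 for Meg3 and 0.116 for Rian), and that of Rian also without full replicate 1, BEC replicate 2 or BEC replicate 3 (edgeR adjusted p 0.0533, 0.0592 and 0.0555). Mirg, of the same domain and named after its values were seen, was near the floor in full (0.170, 0 and 0.175 CPM) and was not called against it (-2.46, SE 1.28, edgeR adjusted p 0.218). The higher ones were Kcnq1, a potassium channel subunit, 5.36-fold above full (2.42, SE 0.15, edgeR adjusted p 1.23e-07), and Plagl1, a zinc finger factor, 4.48-fold (2.16, SE 0.16, edgeR adjusted p 5.68e-07).

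Markers of other cell types were read beside these results. Summed mesothelial markers ran from 6.01 to 8.64 CPM in early, 3.21 to 4.33 in intermediate, 30.2 to 45.4 in full and 225 to 249 in BEC. This sum was mostly Msln, at 195, 187 and 212 CPM in BEC, which with Gpm6a was above each group (2 of 6 tested). Among the defining mesothelial genes, Upk3b had 0.385, 0.978 and 0.685 CPM, and Bnc1 and Calb2 were at 0 in BEC. Summed stellate cell and fibroblast markers were 147 to 383 CPM in early, 1842 to 2533 in intermediate, 2994 to 3463 in full and 1701 to 2273 in BEC, with 0 of 11 above and 1, Reln, below each group. Endothelial markers summed to 17.95 to 28.5 CPM in early, 11.3 to 22.8 in intermediate, 5.57 to 8.18 in full and 9.15 to 13.4 in BEC, with 0 of 9 above or below each group and 1 higher in BEC than in full. B and plasma cell markers summed to 21.4 to 62.2 CPM in BEC and 6.87 to 23.4 in full, with Ms4a1 and Pax5 at 0 in BEC and Igkc, of 2 tested, above each group. Tuft cell markers summed to 96.3 to 128 CPM in BEC and 54.4 to 64.6 in full, mostly Dclk1 in BEC, with Il25 and Gfi1b at 0 in BEC and, of 4 tested, 1 above and 1 below each group. Intestinal markers summed to 285 to 357 CPM in early, 42.6 to 51.7 in intermediate, 25.2 to 38.2 in full and 70.8 to 89.1 in BEC (2 of 6 above each group). Of 9 tested markers of dendritic, erythroid, mast, neuroendocrine and acinar cells, 0 were above or below each group, but neuroendocrine markers summed to 37.1 to 69.7 CPM in full and 3.42 to 8.29 in BEC, with 1 of 3 tested lower than full. Of 4 markers of neurons and glia, 0 were above and 1 below. Neutrophil and T and NK cell markers summed to at most 1.13 CPM in any library. What these cells contribute to the counts above was not tested.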

How the data were processed

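Gene-level RNA-seq was read from 12 libraries in 4 sorted groups of 3. The whole-number read counts per gene were deposited by the authors, per the file headers. STAR 2.7.10b, featureCounts 2.0.1, DESeq2 and build GRCm39 are named in the submitters' processing notes. Strand and multi-mapping settings were not given in the sources used here, so overlapping genes and near-identical copies are uncertain. A second table, of normalized values, was not used here. Some genes that met the naming rule are not reported here.

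Counts were fitted with edgeR 4.0.16 (quasi-likelihood test, TMM factors, filterByExpr by group, 1 term per group) in R 4.3.3, leaving 16210 of 53599 genes, with Benjamini-Hochberg adjustment over all of them (threshold 0.05). Fold changes are log2 with standard errors, printed CPM is a count divided by the library total times its TMM factor, and fold ratios are of mean CPM. The common biological coefficient of variation was 14.8%. Replicate libraries of a group differed beyond sampling noise (chi-square per degree of freedom 5.34 to 58.2). Reads without molecular identifiers are not independent molecules, so the floor of 3 counts covers counting error only.

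Named genes were, per direction, the 12 stage-flat and 4 stage-graded genes with the widest gap to the nearest EGFP-positive group (stage-flat: group means of log2 CPM, prior count 2, within 1; at least 2-fold; mean CPM of at least 10; no overlap of libraries), and up to 4 per list. Members, lists and tests were chosen with earlier results of these data known. Lists covered hepatocyte, biliary, duct transport, mucosal, transcription factor, imprinted, Notch, YAP, cilium, interferon, antigen, p53, cell cycle, porphyrin, adhesion, keratin and dissociation stress genes and markers of other cells.

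The labels number the replicates in each group without saying what the numbers share. Deviations of same-numbered libraries correlated at 0.223, 0.140 and 0.261 between BEC and the mean of the EGFP-positive groups and at 0.257, 0.170 and 0.240 between BEC and full, but at 0.0869, 0.0442 and 0.145 between BEC and early. With intermediate in place of full, the values were 0.175, 0.0839 and 0.175. For the origin contrast and for BEC against full, every pair was thus over 0.1. The reported calls, standard errors and adjusted p-values nevertheless come from the fit with 1 term per group, which ignores pairing. Pairing by replicate number entered only as an alternative, the replicate block.

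Alternatives were DESeq2 1.42.0, limma-voom (limma 3.58.1), median-of-ratios factors, total counts only, other filters on low counts, a replicate block, a minimum 2-fold or 4-fold change, other limits for stage-flat genes, and each library left out. Figures used Python 3.11.15, pandas 2.3.3 and matplotlib 3.10.9.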

Additional observations from a re-analysis of the deposited data

How the results depend on the processing

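Over 15 counts of genes, leaving out each library in turn kept all 180 recomputed counts within 1.5 times the reported ones, and 114 of 143 other recomputed counts stayed within it. With total counts only, 8559 genes were higher and 2598 lower in the origin contrast, and 59 of the 104 higher and 39 of the 97 lower stage-flat genes were shared. With a mean of at least 50 counts, the 2-fold higher genes were 462 (33 stage-flat, 429 graded). Testing against a minimum 2-fold change gave 3533 genes in the origin contrast (2193 higher, 1340 lower), 6129 against early, 3202 against intermediate, 803 against full, 377 above each group and 236 below (stage-flat 45 and 43, graded 332 and 193). Against the mean of intermediate and full only, 3567 were higher. Stage-flat genes were 28 and 32 within 0.5 log2 units, and with flat defined by the F test 106 higher and 63 lower. At least 4-fold differences gave 370 higher and 190 lower genes (stage-flat 61 and 29, graded 309 and 161). With the replicate block, 10469 genes were called in the origin contrast and 4096 against full, 1653 above each group and 1254 below, and no call of a named gene was lost. For single genes, 79 such values lost their call, most under the minimum 2-fold change, and 6 changed sign; with a library left out, 54 lost it and 7 changed sign. Cd24a (BEC minus full, near 0 throughout) changed sign with DESeq2 (0.0115), median-of-ratios factors (0.0115), total counts (4.51e-05), a mean of at least 50 counts (0.0132) and 7 single libraries left out (range over all 12 from -0.16 to 0.0991). Ifit3 (0.00154) and H2-Q7 (0.0383) changed sign with total counts, and Col12a1, Lgals1 and Igf2bp2 lost their call against early. The cause was not tested. Genes near 3 counts, such as Gata5, Pdx1 and Naip6, are limited by depth.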

Other observations

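Some lower genes were farther from the resident level in full than in early. Of the 407 graded genes below each group, 34 had a higher level in full than in early, 21 of them by more than 1 log2 unit. Of the 97 stage-flat ones, 34 did as well, 0 of them by more than 1 log2 unit. The graded genes named here were chosen after their values were seen. Vim, the mesenchymal intermediate filament vimentin, had 30.6, 26.7 and 27.1 CPM in early, 332, 289 and 243 in intermediate, 266, 223 and 248 in full and 8.77, 13.7 and 10.4 in BEC. The log2 difference was -4.49, SE 0.17, edgeR adjusted p 4.05e-09 for BEC minus full and -1.36, SE 0.16, edgeR adjusted p 3.41e-06 for BEC minus early, the nearest group. With library totals as the scaling, the difference from early was -0.49 (edgeR adjusted p 0.0115). Vim differed across the 3 stages (F test, edgeR adjusted p 1.32e-09). Col12a1, a fibril-associated collagen, had 10.4, 13.5 and 14.7 CPM in early, 79.9, 75.6 and 84.1 in intermediate, 60.8, 54.9 and 79.4 in full and 6.98, 6.10 and 5.76 in BEC, and Lgals1, the lectin galectin-1, had 104, 84.8 and 107 CPM in early, 267, 267 and 245 in intermediate, 224, 195 and 221 in full and 32.9, 49.5 and 48.4 in BEC. For all 3 genes the intermediate mean was the highest and all BEC libraries were the lowest, and the gap to resident cells was wider at full (Col12a1 -3.37, SE 0.16, edgeR adjusted p 1.68e-08; Lgals1 -2.29, SE 0.15, edgeR adjusted p 2.09e-07) than at early (-1.03, SE 0.17, edgeR adjusted p 7.23e-05 and -1.17, SE 0.14, edgeR adjusted p 5.09e-06). Scaled by library totals, BEC minus early was -0.17 for Col12a1 (edgeR adjusted p 0.363) and -0.31 for Lgals1 (edgeR adjusted p 0.0637), and neither call held. Spon2, a secreted matrix protein, Ank2, a membrane-skeleton adaptor, Igf2bp2, an RNA-binding protein, and Foxp2, a forkhead factor, also had higher means in full than in early, with BEC minus full at -2.97, -3.71, -2.53 and -2.69 log2 units. BEC minus early was -1.40, -2.14, -1.41 and -1.65 in the same order, and -0.53, -1.27, -0.54 and -0.78 when scaled by library totals, where Igf2bp2 was no longer called (edgeR adjusted p 0.117). Summed stellate cell and fibroblast markers were 147 to 383 CPM in early, 1842 to 2533 in intermediate, 2994 to 3463 in full and 1701 to 2273 in BEC, and the part of such cells in these differences was not tested. On the higher side, Extl1, a glycosyltransferase, had 3.88, 1.73 and 2.83 CPM in early, 0.377, 0.603 and 0.906 in intermediate, 0.893, 0.535 and 1.49 in full and 4.72, 7.69 and 6.99 in BEC, a level that was lower in full than in early, and its call was lost without early replicate 2 (edgeR adjusted p 0.0512).

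Nlrc4, Naip5 and Naip6 were 3 stage-flat higher genes at low levels, chosen after their values were seen. With total counts only, the stages spanned 1.26 log2 units for Nlrc4, past the stage-flat limit, and 0.75 and 0.88 for Naip5 and Naip6, within it. Nlrc4, the adaptor of the flagellin inflammasome, had 0.237, 0.546 and 0.243 CPM in early, 0.440, 0.164 and 0.340 in intermediate, 0.723, 0.535 and 0.437 in full and 3.71, 2.10 and 2.19 in BEC (2.22, SE 0.41, edgeR adjusted p 0.00131 against full). Its partners Naip5 and Naip6, near-identical copies whose reads may be shared, had 0.425, 0.357 and 0.569 and 0.298, 0.357 and 0.0875 CPM in full and 2.60, 1.40 and 2.38 and 1.06, 1.16 and 1.60 in BEC (2.22, SE 0.43, edgeR adjusted p 0.00175 and 2.34, SE 0.57, edgeR adjusted p 0.00857), and the Naip6 call did not hold without full replicate 3 (edgeR adjusted p 0.0503).

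Genes of these classes often lay next to each other. In RefSeq order, 206 of 779 placed genes at least 2-fold higher in BEC (26.4%) had a direct neighbour of the same class, against 9.93% of all 15064 placed genes with such a neighbour, and 115 of 487 lower genes (23.6%, against 6.29%). Runs of at least 3 numbered 16 and 9. They included the fibrinogen chains Fgg, Fga and Fgb and the phosphate transporter family members Slc17a1, Slc17a2 and Slc17a3 among the lower. Overlapping genes and copies of 1 family may share reads, and how much of the neighbouring comes from that was not tested.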
